A study of Mus musculus with 6 samples.

Results

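The genes described here encode 10 integrin chains that T cells can carry, of the 29393 genes in the table of counts: the α chains Itgal (αL), Itgax (αX), Itgae (αE), Itga4 (α4), Itga2 (α2) and Itgav (αv), and the β chains Itgb2, Itgb7, Itgb1 and Itgb5. They were found by gene symbol, all 10 had a row, and all 10 had enough counts to be tested. RNA was measured in cDNT, which are mouse T cells lacking CD4 and CD8 sorted after mature dendritic cells and IL-2 had converted them in culture from CD4+CD25- T cells of C57BL/6 mice. The 3 libraries W/ IL-10 came from cells given 50 ng/ml of IL-10 for 24 h, and the 3 libraries W/O IL-10 from cells that were not. The methods of the study add anti-CD3/CD28 antibodies to the culture, which the sample labels do not mention, and the labels name adult mice and spleen. According to the submitters' description sequencing was done in duplicate, but each group has 3 libraries, and how these fit together is not explained. Neither source says whether the 3 libraries of a group came from separate mice or cultures, so that the p-values measure the spread between these libraries, which may be technical.

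An integrin is a pair of one α and one β chain that spans the membrane and holds a cell to other cells or to matrix. Chains must pair to reach the surface, and several chains share a partner: αL and αX both pair with β2, αE and α4 with β7, α4, α2 and αv with β1, and αv also with β5. On T cells, αLβ2 (LFA-1) binds ICAM proteins on the cells they touch, α4β1 and α4β7 bind VCAM-1 and MAdCAM-1 on vessel walls, αEβ7 (CD103) binds E-cadherin on epithelium, α2β1 binds collagen, and αv integrins bind vitronectin and the latent form of TGF-β. αXβ2 (CD11c) is best known from dendritic cells and is also found on activated T cells and NK cells.

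Library totals were 21619420 to 23967088 counts, and the 10 chains took 0.239% to 0.269% of each library, with 156 to 24171 counts per chain and library. The labelled cell type was checked against marker genes. All 10 T cell markers were expressed (Thy1, 1335 ± 42.5 CPM W/O IL-10, SD, n = 3; CPM is the count scaled to library size), and Cd4 had 8 to 38 counts per library. Cd8a, however, had 107 ± 11.7 CPM W/O IL-10 and rose to 158 ± 16.6 CPM in the treated cells (SD, n = 3, adjusted p = 0.0369 from the edgeR test described with the comparison). Cd8b1, the other CD8 chain, rose from 38.1 ± 6.03 to 60.7 ± 5.15 CPM and was called (edgeR adjusted p = 0.0306). The T cell markers summed to 3090 to 3593 CPM without IL-10 and to 3958 to 4022 CPM with it, 9 of 10 having a log2 fold change above 0. Of these Cd5 fell from 62.3 ± 7.43 to 44.8 ± 2.01 CPM (edgeR adjusted p = 0.0467), and Thy1 passed in DESeq2 but not in edgeR (adjusted p = 0.102). Of the dendritic cell markers, Clec9a and Siglech had at most 1 count in every library and Flt3 at most 7. Others were present, with counts per library of 6 to 514 for Ccl22, 51 to 191 for Sirpa and 21 to 185 for Fscn1. Zbtb46 had 96 to 170 counts and Xcr1 85 to 147. The list summed to 24.1 to 49.5 CPM W/O IL-10 and 15.8 to 21.3 CPM W/ IL-10. W/O IL-10 replicate 1 stood apart in genes of low GC content. Over the 1015 tested genes of up to 40% GC its median lay 0.51 on the log2 scale below the mean of the 6 libraries. W/ IL-10 replicate 1 lay 0.25 above that mean, and the remaining libraries 0.06 to 0.10 above it. The median log2 fold change was 0.24 over these genes and -0.08 over those above 55% GC, so the fold changes varied with GC content. W/O IL-10 replicate 1 also held 350 counts of the platelet gene Pf4, against 52 and 12 in the other W/O IL-10 libraries.

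Compared per length of transcript (CPM per kilobase of merged exons), the chains spanned a wide range. In cells W/O IL-10, Itgal had 145 ± 4.09 and its partner Itgb2 138 ± 6.29 CPM per kilobase (SD, n = 3), levels whose ranges overlapped. They were followed by Itgb1 with 106 ± 9.08, Itgb7 with 79.7 ± 3.84, Itgav with 23.1 ± 3.81 and Itga4 with 13.0 ± 2.77, each without overlap with its neighbours in the order. Itgae with 5.95 ± 1.06, Itgb5 with 4.83 ± 0.792 and Itgax with 4.23 ± 0.429 CPM per kilobase were overlapping neighbours, and Itga2 was lowest with 1.01 ± 0.115. Thus αL was the only α chain of the 6 whose level overlapped that of its β partner, while β1 and β7 mRNA exceeded each of their α partners among the 10. W/ IL-10, Itgax moved from the ninth to the seventh place with 8.99 ± 1.12 CPM per kilobase and overlapped Itga4 (10.04 ± 1.62), whereas Itgae (3.72 ± 0.664) and Itgb5 (2.30 ± 0.291) came below it. Over the 6 libraries Itgb2 came before Itgal by merged exons and after it when the longest transcript was taken as the length, and no other chain changed its place.

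**Figure D1:**
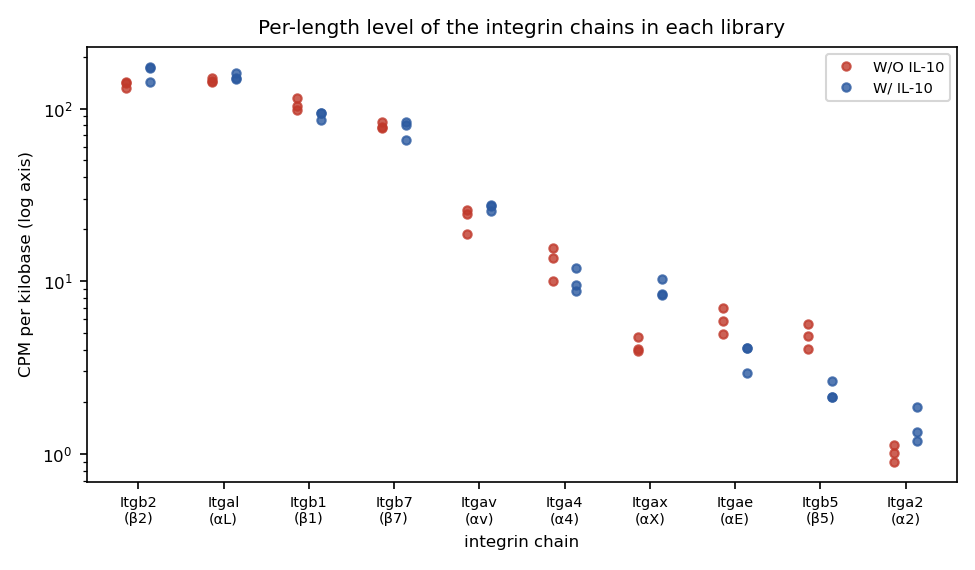
Level of each integrin chain in CPM per kilobase of merged exons (vertical axis, logarithmic), with 1 point for each W/O IL-10 library (red) and each W/ IL-10 library (blue). Itgb2 and Itgal are highest, Itga2 lowest, and the 3 W/ IL-10 points of Itgax lie above its 3 W/O IL-10 points.

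To ask what IL-10 did to these chains, the 3 W/ IL-10 libraries were compared with the 3 W/O IL-10 libraries by the quasi-likelihood test of edgeR, with p-values adjusted by the method of Benjamini and Hochberg over the 14916 tested genes, and a gene was called at a fold change of at least 1.5 and an adjusted p-value under 0.05. Within the family Itgax rose, Itgb5 fell, and the other 8 chains did not pass the test. That is 2 of 10 chains called, where 1.45% of all tested genes were called, 0.778% as higher and 0.677% as lower. The chains were chosen with earlier results of these data known, so the shares given here describe them and test no enrichment. Before adjustment, 7 of the 10 chains had a p-value under 0.05, against 14.7% of all tested genes (edgeR). At any fold, an adjusted p under 0.05 was reached by 327 of all tested genes in edgeR and by 696 in DESeq2. The median log2 fold change was 0.0088 over the 10 chains and 0.0063 over all tested genes, with 5 chains above 0. The groups did not overlap for 6 chains, 3 higher and 3 lower W/ IL-10, where this held for 22.6% of the tested genes (11.3% higher and 11.2% lower). In bulk RNA, fewer cells carrying a chain and less mRNA per cell cannot be told apart.

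**Figure D2:**
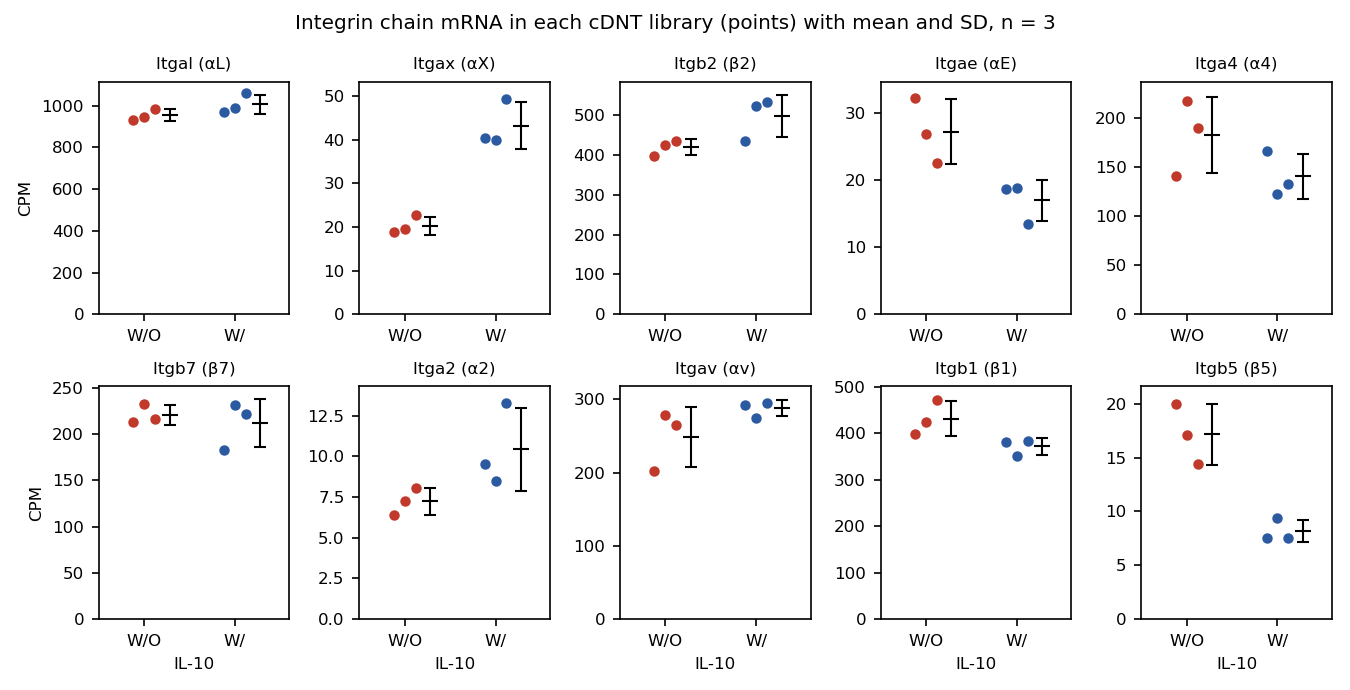
CPM of each integrin chain (vertical axes, starting at 0) in the 3 W/O IL-10 libraries (red) and the 3 W/ IL-10 libraries (blue), with the mean and SD beside the points. Itgax is higher and Itgb5 lower W/ IL-10 with no overlap between groups, while Itgal and Itgb7 overlap.

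**Figure D3:**
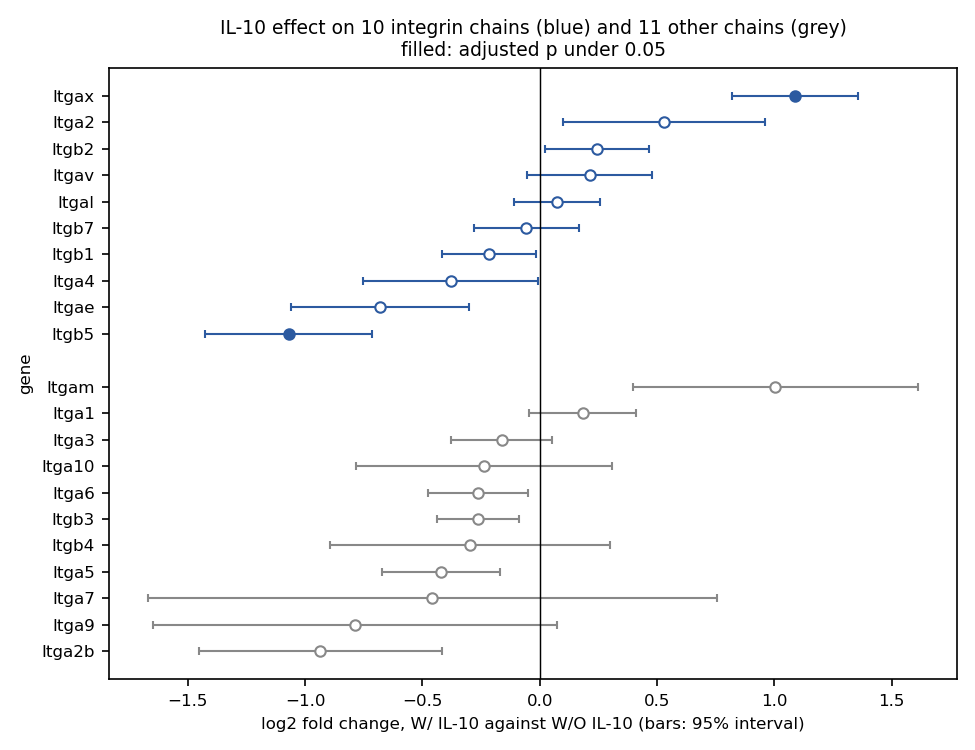
Log2 fold change of W/ IL-10 against W/O IL-10 (horizontal axis) with its 95% interval for the 10 integrin chains (blue) and the 11 other integrin chains that were tested (grey). Only Itgax and Itgb5 have filled points, which mark an adjusted p-value under 0.05.

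The β2 integrins were described first. Itgax, the CD11c chain (ENSMUSG00000030789, chromosome 7 of GRCm38, 128129547 to 128150657), had 18.8, 19.5 and 22.7 CPM in the W/O IL-10 libraries and 40.4, 39.8 and 49.4 CPM in the W/ IL-10 libraries. Each W/ IL-10 library lay well above the highest W/O IL-10 library. The mean went from 20.3 ± 2.06 to 43.2 ± 5.36 CPM (SD, n = 3), a 2.13-fold rise, or 1.09 on the log2 scale (standard error 0.12, edgeR adjusted p = 0.00383). The log2 fold change stayed between 0.98 and 1.16 and the adjusted p-value at 0.0331 or lower with each library left out in turn. A fold change beyond 1.5 was not shown, as the adjusted p-value was 0.124 when that fold was made the null hypothesis (glmTreat in edgeR). Itgax shares 8.0% of its 50-base stretches with its neighbour Itgad, which had 5 to 23 counts per library against 461 to 1128 for Itgax. The summed dendritic cell markers were lower in every W/ IL-10 library than in every W/O IL-10 library, with Ccl22 the largest part of the difference, whereas Xcr1 of the same list had 3.88 ± 0.358 CPM W/O IL-10 and 5.88 ± 1.06 CPM in the treated cells, without overlap. None of the 7 tested markers passed the edgeR test (5 had an unadjusted p under 0.05, and DESeq2 gave 2, Fscn1 and Sirpa). Their part in the rise of Itgax was not tested.

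Because Itgax had the smallest p-value of the 10 chains, the 250 bases before its start in RefSeq (GRCm38.p6, chr7:128129300-128129549, + strand) are shown 5′ to 3′, with the match to an AP-1 motif in capitals.
Itgax: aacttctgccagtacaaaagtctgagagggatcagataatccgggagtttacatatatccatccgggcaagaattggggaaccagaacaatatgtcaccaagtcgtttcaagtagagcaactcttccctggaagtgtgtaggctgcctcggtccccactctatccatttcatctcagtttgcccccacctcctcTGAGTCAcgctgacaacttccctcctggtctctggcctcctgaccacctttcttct
For comparison, 3 motifs were searched on both strands: TGANTCA (AP-1), TTCNNNGAA (STAT, the family that carries the IL-10 signal) and TGTGGT (RUNX). RefSeq promoters were found for 7 of the 10 chains, namely Itgax, Itga2, Itga4, Itgav, Itgb1, Itgb5 and Itgb7. The AP-1 letters were present in Itgax alone of these 7, beginning 56 bases before the start, and in 6.7% of the 32851 promoters of this length. The RUNX letters were present in Itga4, 60 bases before the start, and in 4614 of the 32851 promoters. The STAT letters were in none of the 7 windows and in 7.0% of all promoters.

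Itgal, the αL chain of LFA-1 (ENSMUSG00000030830, chromosome 7, 127296260 to 127335138), was the most abundant of the 10 in counts. It had 933, 946 and 985 CPM W/O IL-10 and 970, 988 and 1058 CPM W/ IL-10, so that the groups overlapped, with a log2 fold change of 0.07 (95% interval -0.11 to 0.26, adjusted p = 0.712, edgeR). Itgb2, the shared β2 chain (ENSMUSG00000000290, chromosome 10, 77530252 to 77565708), had 399, 426 and 436 CPM W/O IL-10 and 436, 524 and 532 CPM W/ IL-10, where the groups met at 436 CPM without overlap. Its log2 fold change of 0.24 (standard error 0.10, 95% interval 0.02 to 0.46) did not pass the adjustment (adjusted p = 0.283, edgeR).

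Relative to its partner, Itgax went from 0.0307 ± 0.00209 to 0.0553 ± 0.00610 of the Itgb2 level (per kilobase, SD, n = 3), and relative to its rival Itgal from 0.0291 ± 0.00211 to 0.0586 ± 0.00460. Both ratios were higher in each W/ IL-10 library than in any W/O IL-10 library. The exact permutation test (two-sided, exact p = 0.1) gave the smallest value that 3 libraries against 3 allow, which was 0.171 after Benjamini-Hochberg adjustment over the 12 ratios. Itgal stayed close to the level of Itgb2, with a ratio of 1.06 ± 0.0281 W/O IL-10 against 0.944 ± 0.0806 W/ IL-10 and overlapping groups. The remaining α partners of β2 had few counts. Itgam (αM, CD11b) had counts of 22 to 33 in the W/O IL-10 libraries and 46 to 52 in the W/ IL-10 libraries, which was 1.00 on the log2 scale (edgeR adjusted p = 0.111). Of its exon bases, 68.7% are also exons of Gm49368, which had at most 2 counts. Reads in these shared exons may have been dropped from both genes, so the counts may understate Itgam.

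Among the β7 integrins, Itgae, the CD103 chain (ENSMUSG00000005947, chromosome 11, 73090583 to 73147446), had 32.2, 26.9 and 22.6 CPM W/O IL-10 and 18.7, 18.9 and 13.5 CPM W/ IL-10. All 3 W/ IL-10 values lay below the lowest W/O IL-10 value. The means were 27.3 ± 4.83 against 17.0 ± 3.04 CPM (SD, n = 3), or -0.68 on the log2 scale (standard error 0.17, 95% interval -1.06 to -0.30) and an adjusted p-value of 0.0866, just outside the threshold (edgeR). With DESeq2 the adjusted p was 0.00454 and Itgae was called, and it was 0.0529 when GC content and length were corrected for in edgeR. The log2 fold change lay between -0.81 and -0.54 with each library left out. The adjusted p-values of these fits were 0.0622 to 0.291 (edgeR), none of them under 0.05.

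Itgb7, the partner of both αE and α4 (ENSMUSG00000001281, chromosome 15, 102215995 to 102231944), had 213, 233 and 216 CPM W/O IL-10 and 183, 231 and 222 CPM W/ IL-10. The groups overlapped, with 1 low library W/ IL-10, and the log2 fold change was -0.06 (95% interval -0.28 to 0.17, adjusted p = 0.834, edgeR). The Itgae level was 0.0749 ± 0.0148 of the Itgb7 level W/O IL-10 against 0.0493 ± 0.0124 W/ IL-10 (SD, n = 3, exact permutation p = 0.1, 0.171 after adjustment), without overlap.

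Cdh1 encodes E-cadherin, the ligand of αEβ7, and its mRNA was itself present in these libraries (chromosome 8, 106603351 to 106670246). Whether T cells or other cells held this mRNA was not tested. Cdh1 fell from 71.3, 64.9 and 67.9 CPM W/O IL-10 to 41.9, 46.5 and 39.0 CPM W/ IL-10. The change of -0.68 on the log2 scale (standard error 0.09, edgeR adjusted p = 0.00846) was called. The adjusted p-value was 0.0556 without W/ IL-10 replicate 1 and 0.0704 without W/ IL-10 replicate 3. In edgeR, Cdh1 was the only gene of the ligand list past both the fold and the p threshold. By the adjusted p-value alone, Cdh1 and Icam1 passed in edgeR, and Cdh1, Icam1 and Thbs1 in DESeq2.

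Itga4, the α chain of VLA-4 and of α4β7 (ENSMUSG00000027009, chromosome 2, 79255426 to 79333123), had 140.4, 217 and 189.9 CPM W/O IL-10 and 166, 123 and 133 CPM W/ IL-10. The groups overlapped only through W/O IL-10 replicate 1, with 140.4 CPM, and W/ IL-10 replicate 1, with 166 CPM. On the log2 scale the difference was -0.38 (standard error 0.16, edgeR adjusted p = 0.331). Without W/O IL-10 replicate 1 it was -0.55 with an adjusted p of 0.0205, and without W/ IL-10 replicate 1 -0.52 with an adjusted p of 0.300 (edgeR). Without W/O IL-10 replicate 2 it was -0.24 with an adjusted p of 0.569, and the remaining fits had adjusted p-values of 0.429 to 0.593 (edgeR). Once GC content and length were corrected for it was -0.49 with an adjusted p of 0.0178 (edgeR). Itga4 has 41.1% GC, and 8.0% of its exon bases lie under the opposite-strand gene Cerkl, which had 50 to 78 counts per library. The sources used here do not say whether the counting used strand.

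Itgb1, the β chain of VLA-4 and of the collagen receptor (ENSMUSG00000025809, chromosome 8, 128685654 to 128733200), had 399, 424 and 472 CPM W/O IL-10 and 382, 349.8 and 382 CPM W/ IL-10. The W/ IL-10 values were all lower, by a log2 fold change of -0.22 (95% interval -0.42 to -0.01) that did not pass the test (adjusted p = 0.300, edgeR). Itga2, the CD49b chain (ENSMUSG00000015533, chromosome 13, 114833081 to 114932100), was measured with 157 to 304 counts per library. Its values were 6.41, 7.23 and 8.04 CPM W/O IL-10 and 9.51, 8.47 and 13.3 CPM W/ IL-10, highest in W/ IL-10 replicate 3. Their log2 fold change was 0.53 (standard error 0.19, 95% interval 0.10 to 0.96, adjusted p = 0.232, edgeR), and 0.31 without that library. CD49b is also a marker of NK cells, whose list summed to 548 to 581 CPM W/O IL-10 and 390 to 417 CPM W/ IL-10, with Eomes and Ncr1 lower (adjusted p = 0.0176 and 0.0460, edgeR). Eomes alone had 517 ± 20.5 CPM W/O IL-10, and Klra8 and Klra4 of the same list had log2 fold changes of 0.38 and 0.25 with overlapping groups.

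Itga2 and Itgav had log2 fold changes above 0 and their partner Itgb1 below 0, as had Itga4, and none of these passed the test. Itga2 went from 0.00957 ± 0.00033 to 0.0160 ± 0.00339 of the Itgb1 level, and from 0.0793 ± 0.0124 to 0.148 ± 0.0436 of the Itga4 level (SD, n = 3, exact permutation p = 0.1 and 0.171 after adjustment for each), without overlap. Itga4 relative to Itgb1 was 0.123 ± 0.0238 W/O IL-10 against 0.110 ± 0.0144 W/ IL-10, relative to Itgb7 0.163 ± 0.0286 and 0.134 ± 0.0396, and the groups overlapped for both. Itgb7 relative to Itgb1, the rival β chains of α4, was 0.757 ± 0.0723 W/O IL-10 against 0.845 ± 0.134 W/ IL-10, also overlapping (exact permutation p = 0.4).

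**Figure D4:**
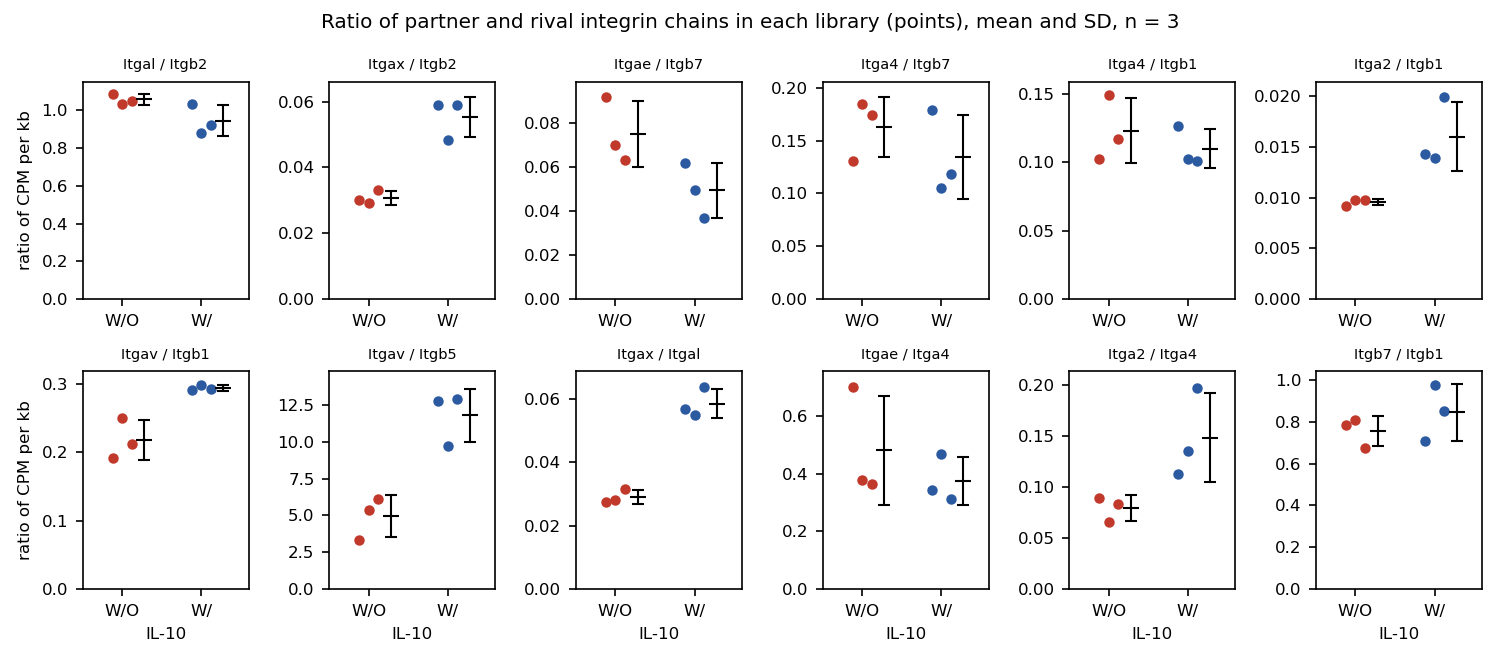
Ratio of the per-kilobase levels of 2 chains within each library (vertical axes, starting at 0) for 8 pairs that form an integrin and 4 pairs of chains that share a partner, with points for W/O IL-10 (red) and W/ IL-10 (blue) and the mean and SD beside them. The groups do not overlap for 7 of the 12 ratios, among them Itgax to Itgb2, Itgae to Itgb7 and Itgav to Itgb5. The ratios share chains and are not separate observations, and no share over other gene pairs was computed. After adjustment no ratio had a p-value below 0.171 (exact permutation test).

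Itgb5, the β chain of the vitronectin receptor αvβ5 (ENSMUSG00000022817, chromosome 16, 33829665 to 33949338), had 19.995, 17.1 and 14.4 CPM W/O IL-10 and 7.57, 9.36 and 7.57 CPM W/ IL-10. The lowest W/O IL-10 library was above the highest W/ IL-10 library. The mean fell from 17.2 ± 2.81 to 8.17 ± 1.03 CPM (SD, n = 3), to 0.476 of the W/O IL-10 level, or -1.07 on the log2 scale (standard error 0.16, edgeR adjusted p = 0.0141). It lay between -1.20 and -0.96 with each library left out. The adjusted p-value was 0.0519 without W/O IL-10 replicate 2, 0.0827 without W/ IL-10 replicate 1 and 0.112 without W/ IL-10 replicate 3, so the call was lost each time. Itgb5 shares 7.3% of its 50-base stretches with Gm38317, which had at most 8 counts per library. The dendritic cell markers, given above, were lower in the same libraries, and their part in the fall of Itgb5 was not tested.

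The 250 bases before the RefSeq start of Itgb5 (GRCm38.p6, chr16:33829415-33829664, + strand) are shown as the counterpart of the Itgax sequence, since this was the chain that fell. It holds none of the 3 motifs, so that no letters are in capitals, and it has 65.2% GC against 50.0% for Itgax.
Itgb5: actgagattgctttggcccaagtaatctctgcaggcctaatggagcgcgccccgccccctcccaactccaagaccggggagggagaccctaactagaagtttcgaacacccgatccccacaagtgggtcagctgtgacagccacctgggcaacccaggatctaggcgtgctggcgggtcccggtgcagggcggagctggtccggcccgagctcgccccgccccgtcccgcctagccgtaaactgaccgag

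Itgav, the αv chain (ENSMUSG00000027087, chromosome 2, 83724397 to 83806916), did not follow Itgb5. It had 202, 279 and 265 CPM W/O IL-10 and 293, 275 and 295 CPM W/ IL-10, with W/O IL-10 replicate 1 lowest and overlapping groups. The log2 fold change was 0.21 (95% interval -0.06 to 0.48, adjusted p = 0.453, edgeR), and without that library it was 0.07. The ratio of Itgav to Itgb5 therefore went from 4.94 ± 1.43 to 11.8 ± 1.80, and that of Itgav to Itgb1 from 0.218 ± 0.0292 to 0.294 ± 0.00393 (SD, n = 3), both without overlap (exact permutation p = 0.1, 0.171 after adjustment). Outside the 10, Itgb3, a further β partner of αv, had 69.9 ± 3.996 CPM per kilobase W/O IL-10 against 58.3 ± 1.51 W/ IL-10 (log2 fold change -0.26, adjusted p = 0.143, edgeR).

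The genes whose values over the 6 libraries were most like those of Itgax, by Pearson's r of log2 CPM among 12974 genes of at least 1 CPM, were Farp1, Jak3, Fgl2, Cdh17 and Chst11, with r of 0.994 to 0.997. As an r above 0.9 was found for 435 genes and 6 libraries in 2 groups share their treatment, this is a description only. Jak3 is the kinase of the common γ chain cytokine receptors, and Fgl2 is a secreted inhibitor made by regulatory T cells. Their log2 fold changes were 0.66 for Jak3 and 0.95 for Fgl2.

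Of 16 further integrin chains, 11 had enough counts to be tested, and none passed the edgeR test. An unadjusted p under 0.05 was found for 5 of the 11 (edgeR), against 14.7% of all tested genes. DESeq2 gave an adjusted p under 0.05 for 2 of the 11, Itga2b and Itga5, and for 696 of all 14916 tested genes. Of the 11, 9 had a log2 fold change below 0, and for 6 all W/ IL-10 values were below all W/O IL-10 values, which held for 11.2% of all tested genes. The median of the 11 was -0.26. Itga5, the fibronectin receptor chain, had 32.0 ± 2.91 and 23.9 ± 2.43 CPM (log2 fold change -0.42, adjusted p = 0.105), and Itga6, a laminin receptor chain, 59.9 ± 5.47 and 49.9 ± 3.75 CPM (adjusted p = 0.233). Itga1, another collagen receptor chain, had 104 ± 8.80 and 118 ± 13.2 CPM with overlapping groups. Itga3 (18.3 ± 0.882 and 16.4 ± 0.199 CPM), Itga10 (2.87 ± 0.627 and 2.43 ± 0.289 CPM) and Itgb4 (1.81 ± 0.351 and 1.47 ± 0.0307 CPM) had adjusted p-values of 0.483, 0.693 and 0.647 (edgeR, SD and n = 3 throughout). Itga2b, the chain of the platelet integrin, had counts of 1229, 814 and 576 W/O IL-10 against 353, 485 and 415 W/ IL-10, or -0.93 on the log2 scale (adjusted p = 0.0846). Its highest value was in W/O IL-10 replicate 1, where Pf4 was also highest, and without that library the log2 fold change was -0.63 (adjusted p = 0.0297, edgeR). The part of platelet RNA in this was not tested.

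The proteins that switch integrins on, relay their signal or are bound by them were examined as lists of genes. The lists were chosen from general knowledge, with earlier results of these data known. At any fold change, 2.19% of all tested genes had an adjusted p-value under 0.05 in edgeR (1.21% higher and 0.979% lower). An unadjusted p under 0.05 was found for 14.7% (edgeR), and DESeq2 gave an adjusted p under 0.05 for 696 of the 14916 genes. Of 17 tested activation genes, Cyth1, an exchange factor that binds the β2 tail, fell from 107 ± 2.36 to 77.7 ± 6.97 CPM (SD, n = 3), or -0.46 on the log2 scale (edgeR adjusted p = 0.0276), but missed the fold threshold. It passed the adjusted p-value in only 1 of the 6 fits with a library left out. Tln1, the talin that binds β tails to actin, had 968 ± 43.4 and 979 ± 102 CPM (adjusted p = 0.963), and Coro1a, an actin regulator of leukocytes, 873 ± 18.8 and 998 ± 60.4 CPM (adjusted p = 0.324). The median log2 fold change of the list was 0.12, 4 of the 17 had an unadjusted p under 0.05, and DESeq2 gave 2 genes, Cyth1 and Skap1. None of the 9 brakes on activation passed in edgeR or DESeq2, and 2 had an unadjusted p under 0.05 (median 0.06). Flna, which competes with talin, had 551 ± 22.5 and 666 ± 48.7 CPM (adjusted p = 0.173), and Sipa1l1, a Rap GTPase-activating protein, 334 ± 27.7 and 374 ± 31.3 CPM (adjusted p = 0.484).

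None of the 15 tested adhesion signalling genes passed in edgeR, where 4 had an unadjusted p under 0.05, while DESeq2 gave 2, Src and Vcl, and the median was -0.10. Zyx, an adhesion-site protein, had 448 ± 8.63 and 435 ± 17.5 CPM, and Ptk2b, the kinase PYK2, 409 ± 13.6 and 428 ± 8.09 CPM. Of 9 tested ligand genes, 5 had an unadjusted p under 0.05 and 2 passed in edgeR, where DESeq2 gave 3, Cdh1, Icam1 and Thbs1. Thbs1, the matrix protein thrombospondin, had counts of 143, 55 and 17 W/O IL-10 against 18, 23 and 11 in the treated cells (edgeR adjusted p = 0.226). Cdh1 fell as given above and Icam1, the ligand of LFA-1, rose from 60.0 ± 0.786 to 75.3 ± 1.96 CPM (log2 fold change 0.33, adjusted p = 0.0447, edgeR) without reaching the fold threshold. Icam1 passed the adjusted p-value in only 1 of the 6 fits with a library left out. Spp1, the matrix protein osteopontin, was the most abundant ligand with 2333 ± 20.5 and 2620 ± 145 CPM (adjusted p = 0.403). Vcam1 and Madcam1, the vessel ligands of the α4 integrins, had at most 9 and 4 counts per library. The 6 membrane proteins that associate with integrins had a median of -0.11, and none passed in edgeR or DESeq2 or had an unadjusted p under 0.05. Cd47 had 601 ± 15.3 and 667 ± 38.3 CPM (adjusted p = 0.430) and Slc3a2 353 ± 12.7 and 345 ± 34.1 CPM (adjusted p = 0.903, edgeR).

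**Figure D5:**
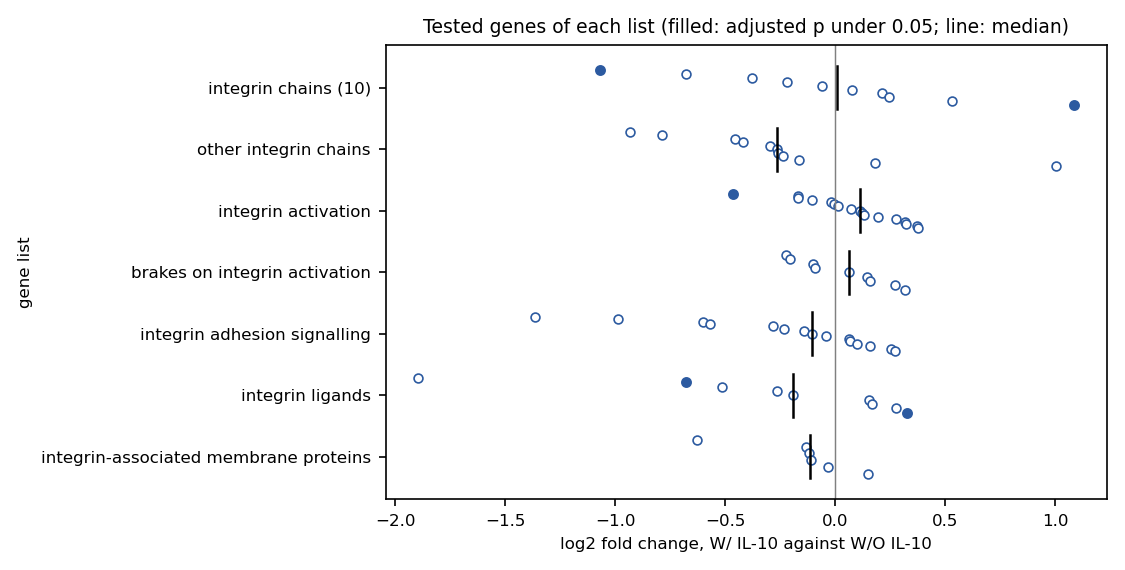
Log2 fold change of W/ IL-10 against W/O IL-10 (horizontal axis) for each tested gene of the 10 integrin chains and of 6 lists of related genes, with the median of each list as a line. Filled points, which mark an adjusted p-value under 0.05, are Itgax and Itgb5 among the chains, Cyth1 among the activation genes and Cdh1 and Icam1 among the ligands.

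The other marker lists moved as follows. B cell markers summed to 139.9 to 214 CPM W/O IL-10 and 86.9 to 144 CPM W/ IL-10, and Blk passed the test (log2 fold change -0.88, adjusted p = 0.0373, edgeR). Markers of monocytes and macrophages summed to 26.7 to 35.3 and 31.1 to 34.4 CPM, most of it Cd68. Neutrophil markers summed to 2.06 to 5.14 and 1.18 to 2.33 CPM, led by S100a9. Platelet markers, led by Pf4, summed to 0.731 to 21.7 and 0.613 to 3.50 CPM. Ccl22 led the dendritic cell list with 12.1 ± 7.87 against 1.94 ± 1.77 CPM W/ IL-10 (SD, n = 3, edgeR adjusted p = 0.102). The part of these lists in the results for the integrin chains was not tested.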

How the data were processed

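The data are counts of reads per gene in 6 libraries, deposited by the authors as whole numbers without normalization. Per the labels, the submitters' processing notes name HISAT2, HTSeq and the build GRCm38, whereas the methods of the study name TopHat, Cufflinks and UCSC annotation. Versions and the use of strand are not given in the sources used here. Reads that fit several genes can be dropped or split in counting, which bears on the overlaps given for Itgam, Itgax, Itgb5 and Itga4.

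Symbols, positions and lengths came from GENCODE release M21 (GRCm38), where 29332 of the 29393 identifiers were found. edgeR 4.0.16 (R 4.3.3) computed TMM factors and the quasi-likelihood test on 14916 genes, those where 3 or more libraries had 10 or more counts, with no covariate. The standard error is the log2 fold change divided by the square root of F, and CPM uses the library totals of 21619420 to 23967088 counts times their TMM factors, which gives 20607236 to 24505586. On that scale 3 counts are 0.122 to 0.146 CPM, which covers counting error only. No pair of libraries held identical values.

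Ratios of 12 chain pairs were tested on log2 (CPM + 0.5) by exact permutation (two-sided), where the smallest p of this design is 0.1. Levels per kilobase used merged exons. Alternatives were DESeq2 1.42.0, upper-quartile normalization, other filters, limma-voom (limma 3.58.1), glmTreat, the replicate number as a block, a spline correction for GC content and length (5 degrees of freedom), each library left out, other pseudocounts and transcript lengths. The edgeR fit, with and without the spline correction, was also run on simulated counts. These held no GC or length bias between libraries, so they could not test what the correction removes. No other step was simulated. Figures and promoter searches used pandas 2.3.3 and matplotlib 3.10.9 in Python 3.11.15. The members and lists were chosen with earlier results of these data known. The genes named are the 10 chains, further chains of at least 1 CPM on average, genes of the integrin pathway lists past an adjusted p-value of 0.05 and otherwise up to 2 of the highest level, the leading marker of each list and the 5 genes most like the chain with the smallest p. Cd4, Cd8b1, Cd5, Xcr1, Zbtb46, Klra8, Klra4, Thbs1, Skap1, Clec9a, Siglech, Flt3, Ncr1, Itgad, Vcam1, Madcam1, Fscn1, Sirpa, Src, Vcl and the overlapping genes were named after their values were seen.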

Additional observations from a re-analysis of the deposited data

How the results depend on the processing

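Of 150 log2 fold changes of the 10 chains under alternatives, 147 kept their direction and 132 also their side of the threshold. The exceptions in direction were Itgb7, at 0.038 after the correction for GC content and length, 0.0365 with that correction and the replicate block, and between -0.13 and 0.0374 with each library left out (0.0374 without W/ IL-10 replicate 1). Of 132 ratios, 131 kept their direction, the exception being Itgae to Itga4, which was between -0.47 and 0.0052 with each library left out. Genes called over the table numbered 217, and 359 with DESeq2, 637 with no filter on low counts, 15 with a fold of 1.5 as the null, 331 with the correction and the replicate block, and 35 to 254 with each library left out (35 without W/ IL-10 replicate 3). Of the 10 chains 2 were called, 0 with a fold of 1.5 as the null and 1 to 2 with each library left out. An adjusted p-value under 0.05 was reached by 2 chains, by 0 with that null and by 1 to 3 with each library left out. With no filter 4 chains reached it, Itgae and Itga4 being added. With the correction and the block 6 reached it, where Itgb2 (adjusted p = 0.0226) and Itgb1 (adjusted p = 0.0419) were added as well (edgeR). Of the further chains 0 were called by edgeR, and 1, Itga2b, with DESeq2, with no filter, with the correction and the block, and 0 to 1 with each library left out. The cause of these differences was not tested. Correlations of deviations were 0.0524, -0.0573 and 0.114 within a number and -0.106 to 0.0409 between different numbers. Such values from 3 libraries per group cannot show whether libraries are paired by the replicate number. With it as a block, 196 genes and 3 chains were called, Itgae being added (adjusted p = 0.0326), and the ratios could not go below 0.25. Depth limits the precision of Itga2 (157 to 304 counts per library) and of Itgb5 W/ IL-10 (156 to 211 counts).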
